A study of Arabidopsis thaliana with 111 samples.

Results

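Peripheral endosperm (PE) was compared with the radicle and embryonic axis (RAD) of germinating Arabidopsis thaliana seeds at 16 h after sowing. The 4 PE arrays and 4 RAD arrays were picked by title and make up 8 of the 111 arrays of a germination time course, and all 21313 measured loci were tested. Every group used here came from wild-type Columbia-0 seeds sown on water agarose under continuous light, with no further treatment or mutation. Seeds were dissected by hand under a microscope. RAD holds the radicle together with the rest of the embryonic axis, so it is a mixture of root and hypocotyl tissues. Whether the seed coat stayed on the excised endosperm was not given in the sources used here. Beside the main pair, 4 arrays of micropylar and chalazal endosperm (MCE) and 4 arrays of cotyledons (COT) at 16 h were used, and for the earlier state of the same pair 3 PE and 4 RAD arrays at 3 h.

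The endosperm of a mature Arabidopsis seed is a thin layer of living cells that encloses the embryo. Its cells store oil and protein, and the part above the radicle tip softens by cell wall remodelling before the root can emerge. The embryo meanwhile takes up water, its axis elongates, and the root meristem prepares to divide. Gibberellin promotes these steps and abscisic acid holds them back, and both hormones act in embryo and endosperm. In what follows, values are log2 expression values, so that a difference of 1 is a doubling of signal, and a locus was called when its limma adjusted p was under 0.05 over all loci and its difference was at least 1. Values of different genes come from different probes and are never set against each other. Standard deviations (SD) are over the arrays of a group. Standard errors and p-values rest on the spread between replicate arrays pooled over all 28 groups of the series, not on the compared arrays alone. The labels do not say whether replicates came from separate seed batches, so p-values measure no spread beyond that between arrays. In dissected tissue, fewer cells of a type and less RNA per cell cannot be told apart.

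The tissue labels were first set beside markers taken as defining, which were chosen with earlier results of these data known. Their values describe the labels and are no independent check of them. EPR1 (AT2G27380), an extensin-like wall protein gene known for expression in the endosperm of germinating seeds, read 13.49, 13.31, 13.51 and 13.23 on the PE arrays and 5.27, 4.32, 5.03 and 4.40 on the RAD arrays. The PE minus RAD difference of EPR1 was 8.63 ± 0.18 (SE, adjusted p = 1.03e-62). The 4 defining endosperm markers EPR1, EXPA2, MAN7 and DELTA-VPE were all higher in PE at 16 h. At 3 h EPR1 was called higher as well, by 6.12. EXPA2 (0.16), MAN7 (-0.15) and DELTA-VPE (0.39) were not called then. The seed coat markers TT10, BAN and TT12 were not called, and whether they would show a seed coat at this stage was not tested. TT10, a laccase of seed coat browning, was 3.16 ± 0.15 (SD, n = 4) in PE and 3.17 ± 0.10 in RAD, and BAN, an enzyme of seed coat tannin synthesis, 3.47 ± 0.02 and 3.46 ± 0.09. Both lie under 4.03, the level that the dimmest 25% of loci passed in none of the 28 groups of the series, called dim below. Of 11 seed coat markers 8 were under that level in both parts, and the mean of the list ran from 3.52 to 3.68 over the PE arrays and from 3.73 to 3.77 over the RAD arrays. Of the 13 measured endosperm-expressed genes 5 were higher and 2 lower in PE (53.8% called, beside 15.4% of all loci). The 5 were the 4 markers above and E12A11 (MFT), and the 2 were NCED6 (-1.33) and CYP707A2 (-2.32). The list median was 0.18 (1.49 over the 10 left by a filter on dim loci), and 6 members were under 4.03 in both parts. The seed coat list had a median of 0.04. TTG2, a transcription factor of seed coat and epidermal fate, was its called member (9.09% of the 11), at 3.50 ± 0.08 in PE and 5.23 ± 0.25 in RAD.

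The defining markers of root and axis were PLT1, PLT2, EIR1 (PIN2), SHR, SCR and MYB66 (WER). All but SCR were called lower in PE, and SCR differed by -0.32 and was not called. MYB66 (WER), which sets the fate of root epidermal cells, read 3.16, 3.30, 3.51 and 3.13 in PE and 9.45, 9.57, 9.10 and 9.39 in RAD. EIR1 (PIN2), the auxin exporter of root tips, read 4.70, 4.63, 4.53 and 4.48 in PE and 9.60, 9.92, 9.75 and 10.06 in RAD. In both genes every PE array lay far below every RAD array. Cotyledon markers gave a mixed picture. AFO (FIL), a regulator of leaf polarity, was 6.01 ± 0.15 in PE, 3.92 ± 0.15 in RAD and 10.41 in COT, and its relative YAB3 was 4.81 ± 0.39, 3.40 ± 0.12 and 8.91. In MCE at 16 h AFO was 5.53 and YAB3 4.53, and neither was called between PE and MCE. At 3 h AFO was 4.25 in PE and 4.24 in RAD, and YAB3 4.55 and 4.06, neither called. STM, CUC1, CUC2 and CUC3, which mark the shoot apex, were under 4.03 in PE. Of the 15 cotyledon and apex markers 2, AFO and YAB3, were called higher in PE than in RAD. The 4 called lower were AN3, KAN (-3.49), AS1 and PHB. Lower in PE than in COT were 12 of the 15. The mean of that list ran from 4.31 to 4.51 over the PE arrays and from 4.94 to 5.04 over the RAD arrays. The part of cotyledon RNA in the PE values was not tested.

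**Figure D1:**
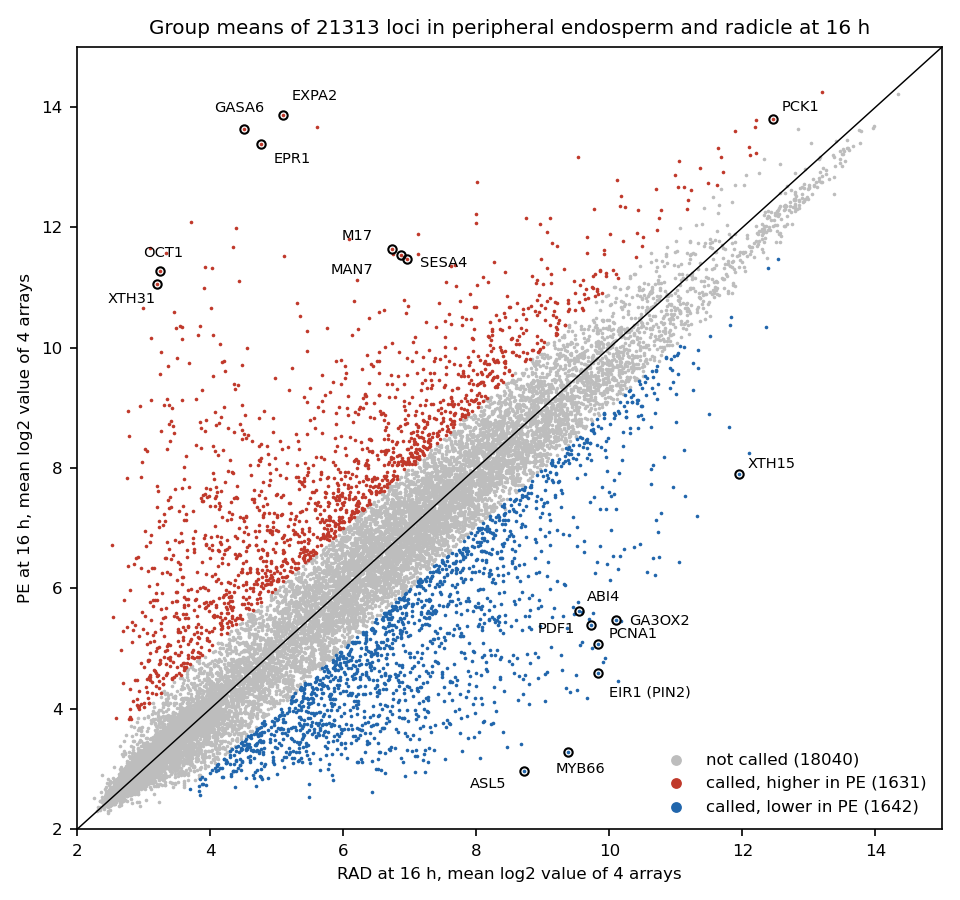
Mean log2 value of each of 21313 loci on the 4 RAD arrays (x axis) and the 4 PE arrays (y axis) at 16 h, with called loci in colour, the line of equality and 17 genes named. The 1631 loci called higher in PE include EXPA2, GASA6 and EPR1 near the upper left edge, with PE means of 13.38 to 13.88.

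At 16 h 3273 loci differed between endosperm and radicle, 15.4% of all loci. They were split about evenly, 1631 (7.65%) higher and 1642 (7.7%) lower in PE, and the median difference over all loci was -0.002. Large differences were not split evenly. At a difference of at least 3 there were 276 higher and 229 lower loci, and at 5 or more there were 64 higher and 12 lower. In 812 of the called loci the lower of both means was under 4.03, 350 of them higher and 462 lower in PE, and there the size of the difference is less certain than its direction. Arrays of the same part correlated across loci at 0.9912 to 0.9964 in PE and 0.9926 to 0.9956 in RAD, against 0.9143 to 0.92 between the parts. Array medians ran from 4.986 to 5.034 in PE and from 5.072 to 5.16 in RAD. All 8 PE and RAD arrays were separate in 9225 loci (43.3%), so separation alone is common here.

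Among genes with a symbol, the 15 with the largest differences in favour of the endosperm included wall, transport and peptide genes. GASA6, a small cysteine-rich peptide of a gibberellin-regulated family, read 13.72, 13.71, 13.59 and 13.53 in PE and 4.89, 3.87, 4.78 and 4.46 in RAD, a difference of 9.14 ± 0.40 (SE, adjusted p = 1.81e-37). EXPA2, an expansin that loosens cell walls, read 13.89, 13.96, 13.93 and 13.72 in PE and 5.45, 4.80, 5.20 and 4.95 in RAD, a difference of 8.78 ± 0.24 (adjusted p = 3.31e-53). OCT1, an organic cation transporter, read 11.54, 11.43, 11.07 and 11.07 against 3.30, 3.24, 3.1 and 3.32. In these 3 genes the PE arrays formed a narrow band and no RAD array came near it. CYP71B2, a cytochrome P450, was 11.66 ± 0.05 in PE and 3.09 ± 0.23 in RAD. scpl20, a serine carboxypeptidase-like gene, was 13.66 ± 0.16 and 5.6 ± 0.25. The others, beside EPR1, were XTH31, NRT1.7, SRG1, HLS1, scpl48, UMAMIT30, SPX1, RALF1 and NIP1;2, with differences from 7.85 down to 6.42. NRT1.7, a nitrate transporter, was 10.67 ± 0.12 in PE and 2.99 ± 0.13 in RAD, and NIP1;2, a channel of the aquaporin superfamily, 11.53 ± 0.12 and 5.11 ± 0.12. RALF1, a signalling peptide that restrains root cell growth, was 9.93 ± 0.17 and 3.26 ± 0.32. SPX1, a sensor of phosphate status, was 11.11 ± 0.45 and 4.44 ± 0.34.

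The 15 with the largest differences in favour of the radicle included root, wall and cuticle genes. After MYB66, at -6.10 ± 0.19, came ASL5 (LBD12), a member of the LATERAL ORGAN BOUNDARIES family. ASL5 read 3.01, 2.81, 3.09 and 2.92 in PE and 8.42, 9.07, 8.6 and 8.76 in RAD, a difference of -5.75 ± 0.16 (adjusted p = 4.86e-53). CYP86A4, a fatty acid hydroxylase of the cutin family, was 4.27 ± 0.16 in PE and 9.41 ± 0.11 in RAD. KCS20, an enzyme of very long chain fatty acid synthesis, was 4.13 ± 0.19 and 9.04 ± 0.18. XYL4, a xylosidase of the wall, was 4.34 ± 0.23 and 9.35 ± 0.17. The wall genes PMEPCRA and PME44, both pectin methylesterases, differed by -4.72 ± 0.39 and -4.71 ± 0.19, and AGP12, an arabinogalactan peptide, by -4.62 ± 0.24. ELP, annotated as extensin-like, was 4.78 ± 0.65 in PE and 9.90 ± 0.30 in RAD. The 15 most negative differences ended at -4.62, whereas the 15 most positive ended at 6.42.

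**Figure D2:**
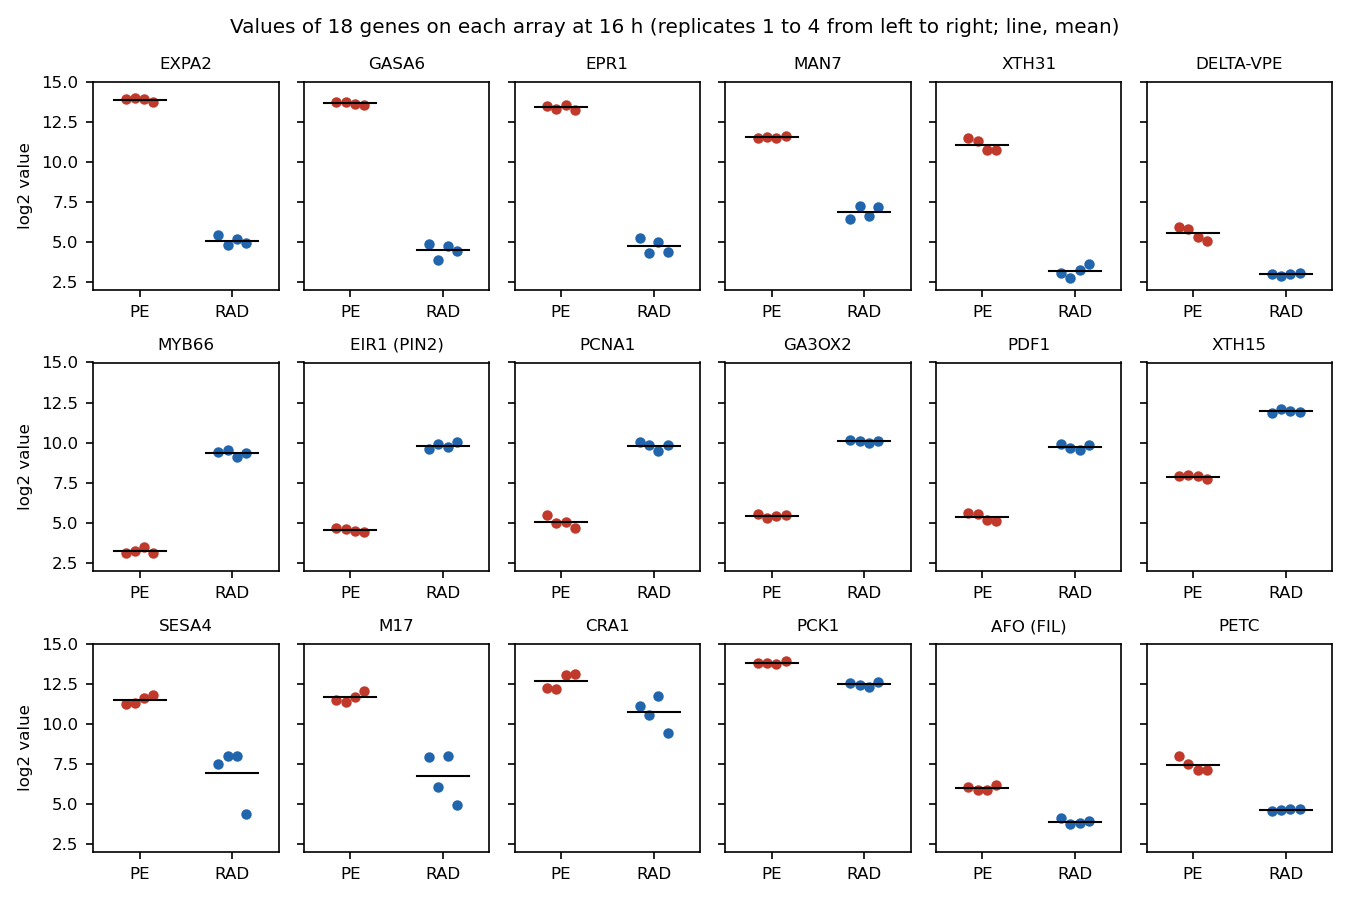
Log2 values of 18 genes on each of the 4 PE arrays (red) and 4 RAD arrays (blue) at 16 h, with the group mean as a line. The arrays of both parts do not overlap in any panel, and RAD replicate 4 lies lowest for SESA4 (4.38), M17 (4.94) and CRA1 (9.44).

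Regulators of the root were lower in PE as a rule. Of 17 measured root meristem and root cap regulators 12 were lower in PE and 1 was higher, with a median difference of -2.74 against -0.002 over all loci and beside the 15.4% of loci called. PLT2, which maintains the root stem cells, read 3.16, 3.55, 3.17 and 3.17 in PE and 6.05, 6.87, 6.86 and 6.72 in RAD. MP, an auxin response factor needed to form the embryonic root, was 2.94 ± 0.17 and 7.08 ± 0.19, and BBM 3.71 ± 0.21 and 7.20 ± 0.21. PLT1, SHR, JKD, SMB, FEZ, GL2, CPC and BHLH32 (TMO5) were lower as well, by 2.01 to 3.35. SCR, which specifies root ground tissue, was 7.83 ± 0.36 in PE and 8.15 ± 0.12 in RAD and was not called. BS1 (TMO7), a small mobile helix-loop-helix protein, was the exception, at 8.47 ± 0.19 in PE and 7.31 ± 0.24 in RAD. Of 7 root hair genes, with a median of 0.02, 1 (14.3%) was called: RHD6, a switch for root hair fate, at 3.16 ± 0.24 in PE and 7.19 ± 0.19 in RAD. RSL4, LRX1, RHD2 and PRP3 were under 4.03 in both parts.

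Auxin carriers divided between the parts. The exporters EIR1 and PIN4 and the importer LAX2 were among those lower in PE. PIN3 and PIN7 were higher in PE, PIN3 at 8.59 ± 0.38 against 5.68 ± 0.09 and PIN7 at 7.74 ± 0.10 against 5.38 ± 0.18. AUX1, LAX1 and LAX3 were not called. Both directions were therefore present among 9 carriers, with 2 higher, 4 lower and a median of -0.61.

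Genes of DNA replication were lower in PE without exception among those measured. All 14 were called lower, with a median of -3.02, and all 5 replication histone H3.1 loci, with a median of -2.84. PCNA1, the sliding clamp of the replication fork, read 5.53, 5.0, 5.06 and 4.72 in PE and 10.07, 9.86, 9.51 and 9.89 in RAD, a difference of -4.75 ± 0.18 (adjusted p = 9.19e-43). PRL (MCM7), a subunit of the replicative helicase, read 4.71, 4.50, 4.31 and 4.45 in PE and 8.66, 8.69, 8.67 and 8.81 in RAD. No PE array reached the lowest RAD array in either gene. The smallest differences were those of the ribonucleotide reductase genes RNR1 and TSO2, at -1.15 ± 0.14 and -1.14 ± 0.15. CDT1A, a licensing factor, was 3.70 ± 0.14 and 7.30 ± 0.08. The genes of mitosis showed no such picture. AUR2, an Aurora kinase, was the called member of 12 (8.33%, beside 15.4% of all loci), at 3.76 ± 0.16 and 6.32 ± 0.25. Of the 12 mitosis genes, with a median of -0.04, 9 were under 4.03 in both parts. Among these were the kinesin HIK and the cytokinesis syntaxin SYP111 (KNOLLE). Of 8 D-type cyclins, which start the cell cycle, CYCD3;2, CYCD3;3, CYCD4;1 and CYCD5;1 were lower in PE, by 1.38 to 2.18, with a list median of -0.79. CYCD1;1 was 4.64 ± 0.49 in PE and 3.77 ± 0.19 in RAD, short of the minimum of 1, and was called higher without PE replicate 1.

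Genes of ribosome production were called in 1 direction, lower in PE. Of 16 cytosolic ribosomal protein genes 1 (6.25%) was called, beside 15.4% of all loci, RPL16A at -1.31 ± 0.11, and the list median was -0.33, with all 16 members lower in PE by value. Among 8 ribosome biogenesis genes 3 (37.5%), SWA1, TOZ and NAP57 (CBF5), were called lower, by 1.05 to 1.23, with a list median of -0.82, and NAP57 fell under the minimum when RAD replicate 2 was left out. After a further quantile normalization 2 of the 8 were called lower.

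Genes of the embryo surface were often lower in PE. Of 20 epidermis and cuticle genes 13 were lower in PE and none was higher, with a median of -1.76. PDF1, an epidermal marker, read 5.66, 5.56, 5.23 and 5.15 in PE and 9.90, 9.65, 9.53 and 9.84 in RAD. LACS2, which activates fatty acids for cutin, read 4.61, 4.93, 4.40 and 4.48 in PE and 9.38, 9.0, 8.81 and 9.03 in RAD, a difference of -4.45 ± 0.18 (adjusted p = 3.23e-39). In both genes the highest PE array was over 3 units below the lowest RAD array. GSO1 and GSO2, the receptors that monitor the integrity of the embryonic cuticle, differed by -3.32 ± 0.14 and -4.01 ± 0.21. ATML1, a master regulator of epidermal identity, was 8.59 ± 0.04 and 10.30 ± 0.11, and its partner PDF2 was 9.44 ± 0.09 and 9.79 ± 0.15, not called. ALE1, a subtilisin-like protease known from the endosperm of young seeds, was under 4.03 in both parts.

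**Figure D3:**
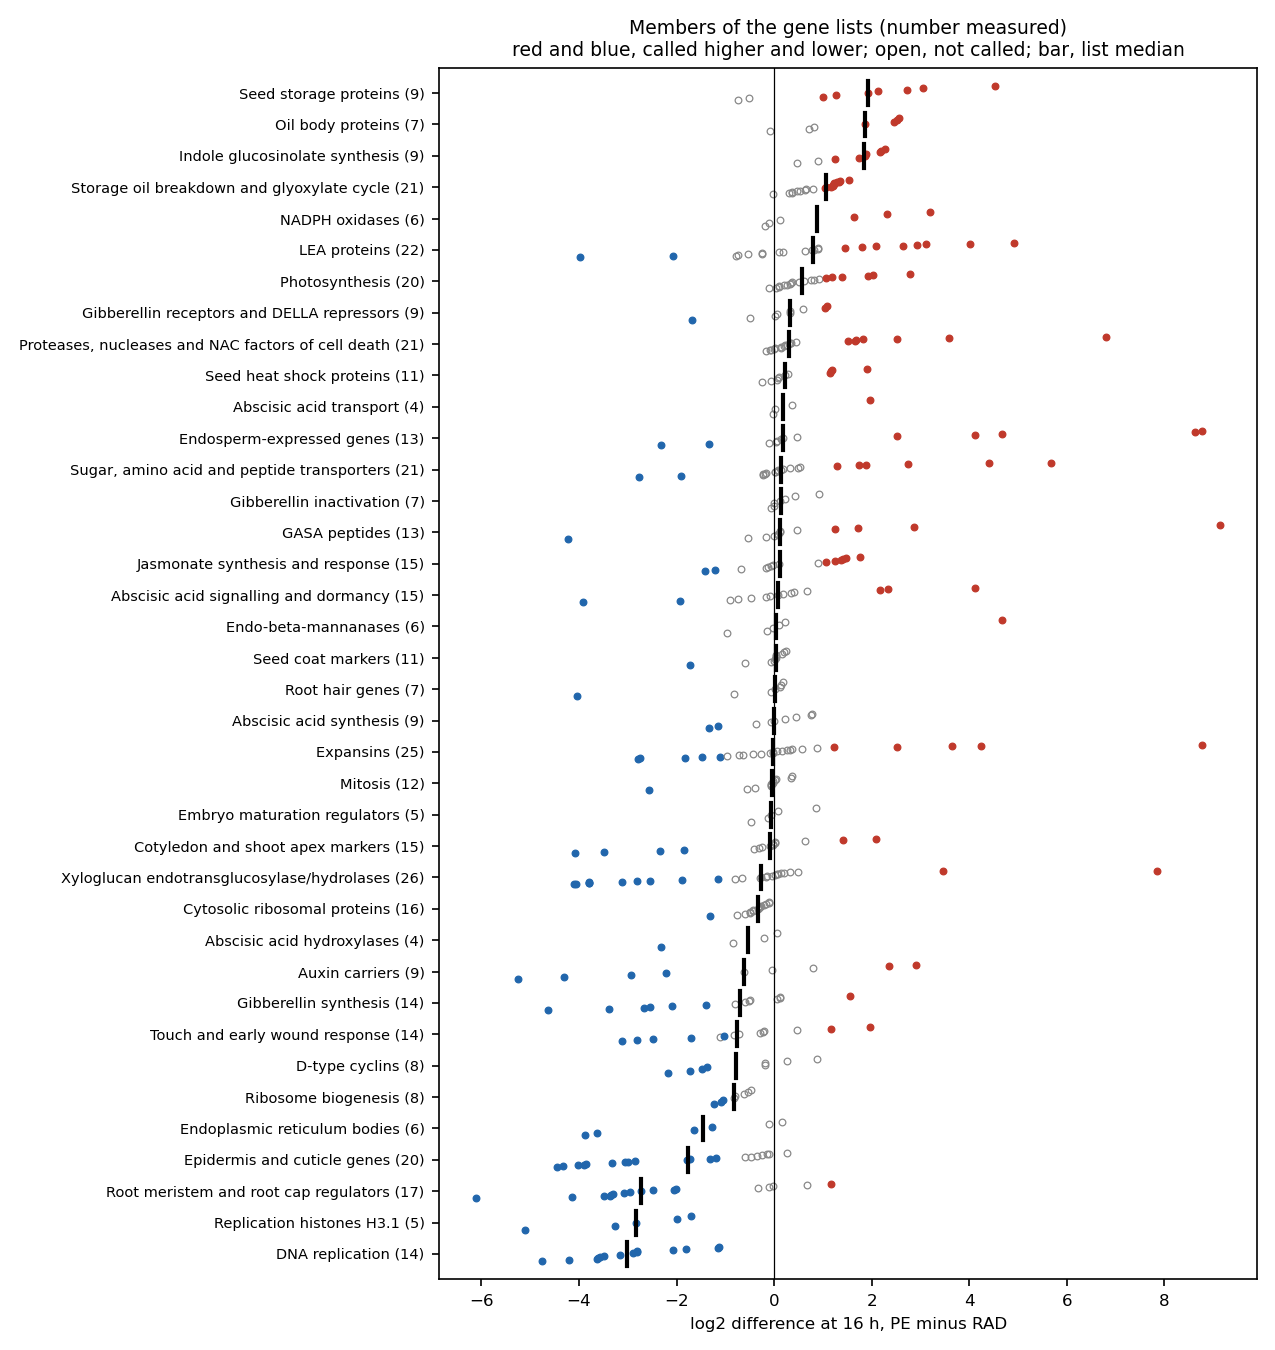
PE minus RAD log2 difference at 16 h for every measured member of the 38 gene lists, one row per list ordered by its median, with filled points for called and open points for other members. DNA replication (median -3.02) and seed storage proteins (1.93) are the rows at either end, and expansins spread over both sides of 0.

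Cell wall proteins of a single family were found on both sides. Of 25 expansins 5 were higher and 5 lower in PE, with a median of -0.02. EXPA8 and EXPA9 accompanied EXPA2 in PE, at 13.18 ± 0.11 against 9.53 ± 0.18 and at 12.23 ± 0.10 against 7.99 ± 0.25. EXPA1 was 12.92 ± 0.10 and 11.70 ± 0.09, and EXPB1 6.63 ± 0.16 and 4.12 ± 0.18. EXPA15, EXPA4, EXLA2 and EXLA1 were lower in PE, by 1.48 to 2.80, and so was EXPA14, whose difference of -1.12 ± 0.16 fell short of the minimum without RAD replicate 1.

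Among 26 xyloglucan endotransglucosylase/hydrolases, which cut and rejoin wall xyloglucan, the balance was 2 higher to 10 lower, with a median of -0.28 (-0.81 over the 21 left by the filter on dim loci). XTH31 read 11.46, 11.28, 10.76 and 10.73 in PE and 3.09, 2.78, 3.29 and 3.66 in RAD, a difference of 7.85 ± 0.19 (adjusted p = 7.29e-57). XTH33 was 9.49 ± 0.29 and 6.03 ± 0.15. On the other side XTH15 read 7.95, 7.99, 7.91 and 7.74 in PE and 11.84, 12.08, 11.98 and 11.91 in RAD. XTH9, XTH5, XTH8 and XTH4 were lower in PE by 3.79 to 4.11. TCH4 (XTH22), a touch-induced member, read 8.45, 8.58, 8.82 and 8.89 against 11.61, 12.13, 11.63 and 11.85. The standard errors of XTH15 and TCH4, 0.39 and 0.43, pool the spread of all 28 groups. XTH19 was 11.90 ± 0.23 and 12.56 ± 0.22 and was not called.

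Endo-beta-mannanases break down the mannan of endosperm walls. MAN7 read 11.50, 11.56, 11.51 and 11.60 in PE and 6.47, 7.24, 6.62 and 7.16 in RAD, a difference of 4.67 ± 0.21 (adjusted p = 1.29e-36). It was the called member of 6 (16.7%, near the 15.4% of all loci), and the list median was 0.04. MAN2 had a difference of -0.98 ± 0.15 and was called lower under trimmed mean scaling, with array weights and without RAD replicate 3 or PE replicate 4. Of 6 NADPH oxidase genes, which make the superoxide that takes part in wall loosening, 3 were higher in PE, with a median of 0.88. They were AT1G19230 at 6.33 ± 0.48 against 3.15 ± 0.04, RBOHB at 4.97 ± 0.40 against 2.65 ± 0.18, and RBOHD at 10.17 ± 0.13 against 8.54 ± 0.23. RBOH F was 4.17 ± 0.30 and 4.36 ± 0.16.

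Gibberellin synthesis genes were unevenly shared. Of 14 synthesis genes 6 were lower in PE and 1 was higher, with a median of -0.70 (-1.74 over the 10 left by the filter on dim loci). GA3OX2, which makes bioactive gibberellin in the last step, read 5.59, 5.31, 5.46 and 5.51 in PE and 10.17, 10.14, 10.02 and 10.09 in RAD, a difference of -4.64 ± 0.18 (adjusted p = 7.33e-41). GA3OX1, which catalyses the same step, read 4.13, 4.14, 4.15 and 4.11 in PE and 7.83, 7.63, 7.21 and 7.37 in RAD. No overlap occurred in either gene, and the PE arrays of GA3OX1 lay just above 4.03. GA20OX3, an oxidase of the step before, had the opposite direction, with 10.45, 10.47, 10.24 and 9.86 in PE and 8.68, 8.83, 8.58 and 8.69 in RAD (difference 1.56 ± 0.24, adjusted p = 3.07e-08). GA20OX1 and GA20OX2 were lower in PE, by 2.54 and 2.67. Of 7 gibberellin inactivation genes 0 were called by limma and 2 had an unadjusted p under 0.05, with a median of 0.13. GA2OX6 was 4.66 ± 0.14 and 3.74 ± 0.24, and it was called higher without RAD replicate 2.

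Of 9 genes of gibberellin perception 2 were higher and 1 lower in PE (33.3% called, beside 15.4% of all loci), with a median of 0.32. SLY1, which marks DELLA repressors for removal, was 8.87 ± 0.10 in PE and 7.78 ± 0.15 in RAD. The receptor GID1A had a difference of 1.04 ± 0.14 and fell under the minimum without RAD replicate 3 or PE replicate 2. The DELLA gene RGL1 was lower in PE, at 5.19 ± 0.20 and 6.87 ± 0.11. RGL2, the main DELLA repressor of germination, was 10.46 ± 0.11 and 9.88 ± 0.19, and GAI 10.80 ± 0.09 and 10.75 ± 0.13, neither called. Of 13 GASA peptide genes 4 were higher in PE and 1 lower, with a median of 0.12. GASA4 was 8.46 ± 1.01 in PE and 6.74 ± 0.32 in RAD, and AT5G14920 (GASA14) ran the other way, at 6.53 ± 0.30 and 10.75 ± 0.14.

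Genes of abscisic acid response were divided as well. E12A11 is the RefSeq symbol of MFT, a regulator of germination that acts in abscisic acid and gibberellin signalling, and it read 7.52, 7.78, 8.87 and 9.07 in PE and 3.84, 3.66, 5.44 and 3.82 in RAD, a difference of 4.12 ± 0.26 (adjusted p = 2.72e-26). The highest RAD array, replicate 3, was still over 2 units below the lowest PE array. OST1 (SNRK2.6), a kinase of abscisic acid signalling, read 7.30, 6.83, 6.69 and 6.83 against 4.35, 4.85, 4.21 and 4.88, and SNRK2.3 was 10.68 ± 0.09 and 8.5 ± 0.15. ABI4, a transcription factor of the same pathway, read 5.62, 5.56, 5.45 and 5.86 in PE and 9.66, 9.32, 9.58 and 9.59 in RAD. ABI2, a phosphatase that turns the signal off, was 4.08 ± 0.16 and 6.01 ± 0.09. ABI5, a regulator of postgerminative arrest, was not called, at 6.93 ± 0.24 and 7.11 ± 0.28. Altogether 3 of 15 signalling genes were higher in PE and 2 lower, with a median of 0.07.

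Of 9 abscisic acid synthesis genes 2 (22.2%, beside 15.4% of all loci) were called, both lower in PE, with a median of -0.01. NCED6 and NCED5, which catalyse the committed step of synthesis, were lower in PE, at 3.58 ± 0.10 against 4.91 ± 0.21 and at 3.60 ± 0.40 against 4.75 ± 0.14. CYP707A2, the hydroxylase that removes the hormone early in imbibition and the called one of 4 hydroxylases (25%), was 5.63 ± 0.47 in PE and 7.95 ± 0.42 in RAD. ABCG25, an abscisic acid exporter, was 8.12 ± 0.12 and 6.17 ± 0.16. Of 5 embryo maturation regulators 0 were called by limma and 2 had an unadjusted p under 0.05, and LEC1, NF-YB6 (L1L) and LEC2 were under 4.03 in both parts. The pair were FUS3, at 5.46 ± 0.13 against 4.59 ± 0.42, and ABI3, at 7.89 ± 0.05 against 8.37 ± 0.16.

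Transcripts of stored reserves were more abundant in PE than in RAD, but the radicle arrays disagreed among themselves here. Of 9 seed storage protein genes 7 were higher in PE and none lower, with a median of 1.93. SESA4, a napin-type albumin, read 11.25, 11.30, 11.58 and 11.80 in PE and 7.48, 8.01, 7.97 and 4.38 in RAD, a difference of 4.52 ± 0.43 (adjusted p = 4.05e-16). CRA1, a cruciferin globulin, read 12.24, 12.18, 13.03 and 13.11 in PE and 11.12, 10.53, 11.74 and 9.44 in RAD. RAD replicate 4 was the lowest array in both genes, and PE stayed above RAD on every array. The RAD SD was 1.74 for SESA4 and 0.98 for CRA1, a spread that enters the standard errors only as part of the pool of all groups. Without RAD replicate 4 the counts were 5 higher and 1 lower and the median 1.51, since CRU3 and AT1G03890 were lost and CRU2 was gained as lower. SESA1 was 11.10 ± 0.36 and 11.62 ± 0.30 and was not called. The mean of the list ran from 9.73 to 10.72 over the PE arrays and from 7.28 to 9.37 over the RAD arrays.

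Oil body and late embryogenesis abundant (LEA) genes followed in part. Of 7 oil body genes, which coat the oil droplets, OLEO1, OLEO2, OLEO4 and ATS1 (a caleosin) were higher in PE, by 1.86 to 2.55, with a list median of 1.86, and OLEO3 was 6.10 ± 0.64 and 6.19 ± 0.41. Of 22 LEA genes, which protect dry cells, 8 were higher and 2 lower, with a median of 0.79. M17 read 11.49, 11.38, 11.69 and 12.03 in PE and 7.93, 6.05, 8.01 and 4.94 in RAD, a difference of 4.92 ± 0.27 (adjusted p = 4.37e-30). COR47, a cold-induced dehydrin, was 10.63 ± 0.29 and 6.61 ± 0.30. EM1 ran against most of the list and read 3.38, 3.95, 4.01 and 4.21 in PE and 8.53, 8.28, 7.81 and 6.81 in RAD, a difference of -3.97 ± 0.26 (adjusted p = 1.05e-25). ERD10 was the other lower member, at 4.55 ± 0.18 and 6.63 ± 0.10. Without PE replicate 4 the lower members numbered 4, with AT4G21020 and AT1G72100 added. Of 11 seed heat shock genes 4 were higher in PE and none lower, with a median of 0.22, among them HSP17.4 at 9.14 ± 0.61 and 7.24 ± 0.63. Among the 15 cotyledon and apex markers, AFO and YAB3 were higher in PE than in RAD and AN3, KAN, AS1 and PHB lower, with a median of -0.08, and storage genes such as CRA1 (13.87) and M17 (12.62) were high in COT. Their part in the reserve genes was not tested.

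Enzymes that use the stored oil were higher in PE by small and even steps. Of 21 genes of oil breakdown and the glyoxylate cycle 12 were higher and none lower, with a median of 1.06, and the arrays of both parts were separate in 19, where 43.3% of all loci were. PCK1, which acts after the glyoxylate cycle in the making of sugar from oil, read 13.81, 13.76, 13.73 and 13.91 in PE and 12.52, 12.42, 12.30 and 12.59 in RAD, a difference of 1.35 ± 0.09 (adjusted p = 5.73e-24). PNC1, a peroxisomal nucleotide carrier, was 9.92 ± 0.09 and 8.38 ± 0.13, PMDH2, a peroxisomal malate dehydrogenase, 5.59 ± 0.11 and 4.25 ± 0.22, and ACX2, an acyl-CoA oxidase, 12.46 ± 0.13 and 11.18 ± 0.01. ICL, the isocitrate lyase of the glyoxylate cycle, differed by 1.06 ± 0.08, near the minimum, and MLS, its malate synthase, by 0.80 ± 0.08. PKT3 (KAT2), at 1.03 ± 0.09, fell short of the minimum under trimmed mean scaling and without RAD replicate 3. Spread within groups was small, so steps under the minimum, such as that of MFP2 at 0.64 ± 0.10, had adjusted p as low as 5.95e-08.

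Transport and proteolysis gave a short list of strong members. Among 21 sugar, amino acid and peptide transporters 6 were higher and 2 lower in PE, with a median of 0.14. SIAR1 (UMAMIT18), an amino acid exporter, was 9.05 ± 0.08 and 3.38 ± 0.13, SAG29 (SWEET15), a sucrose exporter of seeds, 8.67 ± 0.11 and 4.27 ± 0.29, and STP1, a hexose importer, 9.77 ± 0.29 and 7.03 ± 0.11. SUC2, the phloem sucrose loader, and AAP6 were lower, by 2.76 and 1.9. Of 21 proteases, nucleases and NAC factors linked to cell death 7 were higher and none lower, with a median of 0.30. DELTA-VPE, a vacuolar processing enzyme known from seed coat and endosperm, read 5.93, 5.84, 5.34 and 5.06 in PE and 3.03, 2.91, 3.02 and 3.11 in RAD. RD21A, a papain-like protease, was 9.43 ± 0.42 and 5.85 ± 0.32, and scpl48 10.36 ± 0.33 and 3.55 ± 0.25. Genes linked to cell death in other plant tissues, such as MC9, CEP1, BFN1 and RNS3, were under 4.03 in both parts, as were 12 of the 21 members in all.

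Defence genes were divided by pathway. Of 9 indole glucosinolate genes 7 were higher in PE, with a median of 1.85. CYP83B1, which commits indole compounds to this pathway, read 12.63, 12.54, 12.17 and 11.81 in PE and 10.66, 10.20, 10.25 and 10.63 in RAD, a difference of 1.85 ± 0.30 (adjusted p = 6.6e-08). MYB34, a transcriptional activator of the pathway, was 11.33 ± 0.17 and 9.06 ± 0.20. CYP79B2 overlapped between the parts, at 7.51 ± 1.08 and 6.28 ± 0.33, and lost its call without PE replicate 1 or 2. Endoplasmic reticulum bodies, which hold the matching glucosidases, had the opposite direction. PYK10 read 6.20, 5.85, 5.43 and 4.84 in PE and 10.13, 9.60, 8.59 and 9.53 in RAD, and NAI2 was 3.50 ± 0.26 and 7.14 ± 0.53, and 4 of 6 members were lower and none higher, with a median of -1.46.

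Some photosynthesis genes were higher in PE. Of 20 members 6 were higher and none lower, with a median of 0.57. PETC, the Rieske protein of the cytochrome complex, read 8.0, 7.49, 7.15 and 7.10 in PE and 4.56, 4.66, 4.69 and 4.72 in RAD, and it was 8.58 in COT. LHCB4.1, an antenna protein, was 6.95 ± 0.34, 4.93 ± 0.34 and 7.68. In 9 of the 20 PE was called lower than COT. The cotyledon markers AFO and YAB3 had the same order of COT, PE and RAD, while AN3, KAN, AS1 and PHB of that list were lower in PE than in RAD, and their part in these values was not tested. Jasmonate genes had 6 higher and 2 lower of 15 and a median of 0.11, led by JAZ10 at 5.79 ± 0.61 against 4.04 ± 0.24, with MYC2 lower at 7.21 ± 0.26 against 8.42 ± 0.06. Of 14 touch and early wound genes 2 were higher and 5 lower, with a median of -0.77. ERF5 was 4.95 ± 0.35 and 7.76 ± 0.40, and CML38 9.72 ± 0.36 and 7.75 ± 0.45. Both parts were excised, and the part of wounding in these values was not tested.

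Some genes with high values had nearly equal means in both parts. Of 652 loci with a mean of at least 10 in both parts 47 (7.21%) were called. ADF1, an actin-depolymerising factor, was 10.45 ± 0.10 in PE and 10.45 ± 0.09 in RAD, RPN8A, a proteasome subunit, 10.25 ± 0.05 and 10.25 ± 0.15, and AAC1, the mitochondrial ADP/ATP carrier, 13.15 ± 0.12 and 13.15 ± 0.08. ASPGB1, an asparaginase, was 11.89 ± 0.41 and 11.89 ± 0.11, with 5.41 in COT. The standard error of the difference was 0.36 for ASPGB1 and 0.08 for ADF1. Of 27 loci of the mitochondrial genome 3 were lower in PE and none was higher, with a median of -0.29. Over all loci 7.7% were lower and 7.65% higher, so so small a count is not far from the general share.

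PE was next compared with MCE, the other part of the endosperm, to see which genes set both apart at 16 h. This comparison uses the same PE arrays. It gave 237 called loci (1.11%), 58 (0.272%) higher and 179 (0.84%) lower in PE, where 1 locus was higher and 24 were lower by at least 2. GASA6 was 13.64 ± 0.09 in PE and 13.63 ± 0.28 in MCE, EXPA2 13.88 ± 0.11 and 14.16 ± 0.21, EPR1 13.38 ± 0.14 and 13.33, and MAN7 11.54 ± 0.05 and 11.44. None of these 4 was called. AGP31, an arabinogalactan protein, was 6.34 ± 0.39 in PE, 9.63 ± 0.29 in MCE and 8.32 ± 0.28 in RAD. ATBFRUCT1, a cell wall invertase, was 7.95 ± 0.25 in PE, 10.50 in MCE and 4.26 ± 0.39 in RAD. HB-3 (WOX9, AT2G33880), a homeobox gene of the embryo, was 4.26 ± 0.17, 6.74 and 7.59 ± 0.20. In the other direction ALDH11A3, an aldehyde dehydrogenase, was 8.81 ± 0.63 in PE, 6.48 in MCE and 3.93 ± 0.21 in RAD.

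Among the 38 lists, the xyloglucan enzymes had the most members called between both endosperm parts. Of 26 members 7 were lower in PE than in MCE and 1 was higher. XTH24 was 3.66 ± 0.26 in PE and 5.73 in MCE, XTH19 11.90 ± 0.23 and 13.45, and XTH33 9.49 ± 0.29 and 10.70. XTH31 was the higher one, at 11.06 ± 0.37 and 9.84. The expansins EXPA4 and EXLA1 were lower in PE than in MCE, EXPA4 at 4.54 ± 0.44 and 6.58. GASA4 was 9.76 in MCE, above its PE value of 8.46 ± 1.01. Of the 14 DNA replication genes 0 were called by limma, 10 had an unadjusted p under 0.05 and the median was -0.54. Among root regulators BS1 was called, at 8.47 ± 0.19 in PE and 10.16 in MCE. The source name of MCE replicate 2 gave 12 h and its title 16 h, and without that array 238 loci were called.

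**Figure D4:**
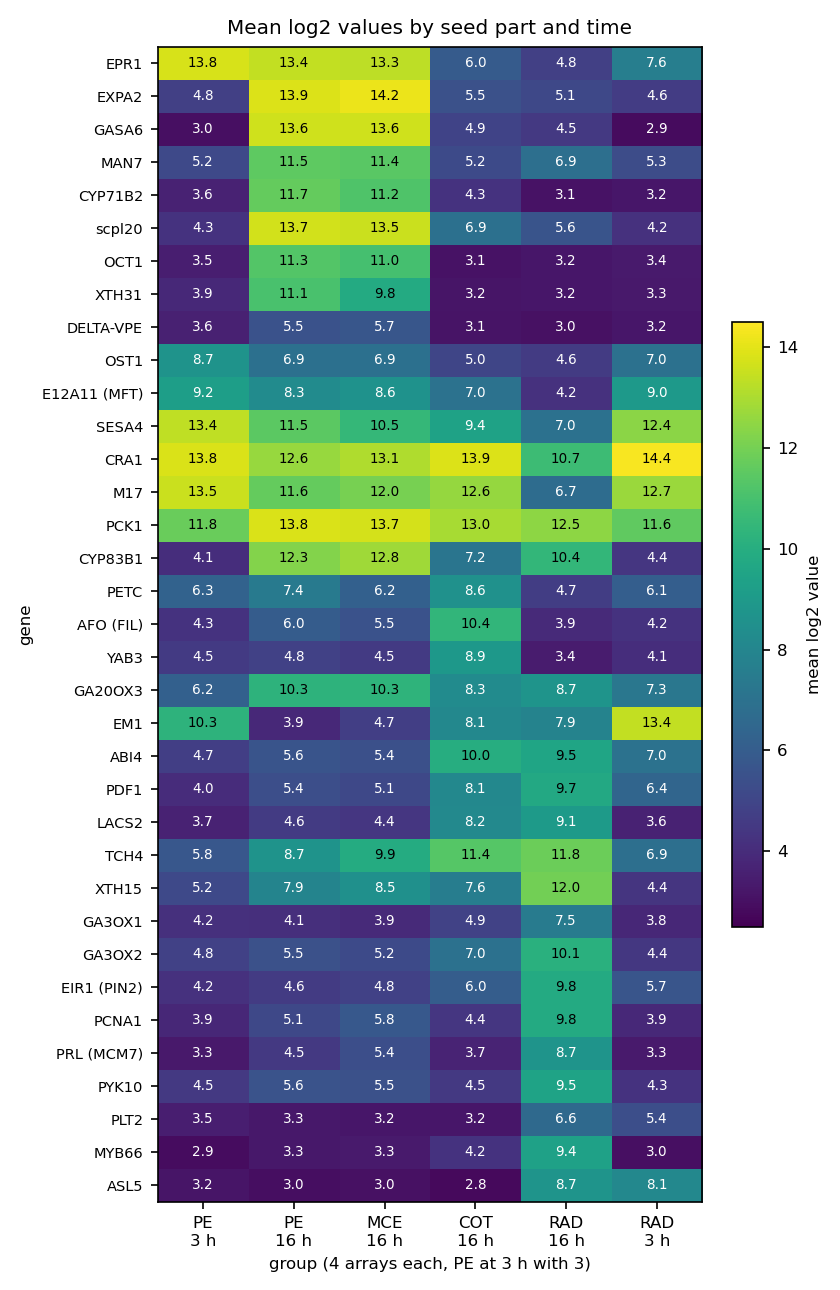
Mean log2 values (colour and number) of 35 genes in PE and RAD at 3 and 16 h and in MCE and COT at 16 h. EXPA2, GASA6 and MAN7 are higher in PE and MCE at 16 h than in the other 4 groups, and AFO and YAB3 are highest in COT.

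Against cotyledons, the other part of the embryo, PE differed in 3205 loci (15%), 1574 (7.39%) higher and 1631 (7.65%) lower, and this comparison again uses the same PE arrays. DNA replication genes were compared between PE and COT as well. PCNA1 was 5.08 ± 0.34 in PE, 4.42 in COT and 9.83 ± 0.24 in RAD, and of the 14 genes 3 (21.4%) were higher and none lower in PE than in COT, with a median of 0.27. Root regulators had 2 higher and 3 lower of 17, with PLT2 at 3.26 ± 0.19 in PE and 3.23 in COT. Cuticle genes were lower in PE than in COT in 12 of 20, and LACS2 was 8.16 in COT against 4.60 ± 0.24 in PE. GA3OX2 was 6.96 in COT, between its PE value of 5.47 ± 0.12 and its RAD value of 10.10 ± 0.07. For reserves the order changed with the gene. CRA1 was 12.64 ± 0.50 in PE and 13.87 in COT, and SESA4 11.48 ± 0.26 in PE and 9.42 in COT. Indole glucosinolate genes were higher in PE than in COT in 8 of 9, with a median of 3.43. ABI4 was 9.99 in COT, E12A11 7.04 and EM1 8.12.

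The same pair was measured at 3 h on other arrays. At 3 h 1468 loci (6.89%) were called, 727 (3.41%) higher and 741 (3.48%) lower in PE. Of the loci higher in PE at 16 h 384 (23.5%) were also higher at 3 h, and these were 52.8% of those higher at 3 h. Of the loci lower in PE at 16 h 298 (18.1%) were lower at 3 h, 40.2% of those lower then. A further 66 loci were called at both times in opposite directions. EPR1 was 13.76 in PE and 7.64 in RAD at 3 h, so it was already far apart, and so were NRT1.7 at 10.70 and 4.64 and AT1G14940 at 13.89 and 5.34. ASL5 was 3.18 in PE and 8.12 in RAD, and AN3, a coactivator of leaf growth, 5.02 and 10.01. EM1 was 10.26 in PE and 13.42 in RAD, and it was lower in PE at both times.

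Other genes were called at 16 h and not at 3 h. The change of the difference between both times was called in 3054 loci (14.3%), 1528 (7.17%) upward and 1526 (7.16%) downward. EXPA2 was 4.78 ± 0.73 (SD, n = 3) in PE and 4.61 ± 0.35 in RAD at 3 h, and its difference changed by 8.62 ± 0.35 (SE). GASA6, at 3.01 ± 0.34 and 2.87 ± 0.34, changed by 9.0 ± 0.59, and scpl20, OCT1, CYP71B2 and XTH31 by 7.28 to 8.16. XTH31 already differed by 0.57 at 3 h (limma adjusted p = 0.0289), under the minimum of 1. On the side of RAD, examples were MYB66, at 2.88 and 2.99 at 3 h, and CYP86A4, at 6.10 and 5.64. MYB66 changed by -5.99 and CYP86A4 by -5.59. RPA2, a subunit of the single-strand binding protein of replication, was higher in PE at 3 h, at 8.5 against 6.64, and lower at 16 h, at 4.55 ± 0.11 against 8.07 ± 0.22.

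By gene list the shift was uneven. Of 14 replication genes TSO2 was called at 3 h, higher in PE, and 13 of the 14 changed downward. Of 9 storage protein genes 4 were lower in PE at 3 h and none higher, and 7 changed upward. SESA4 was 13.36 in PE and 12.40 in RAD at 3 h and 11.48 ± 0.26 and 6.96 ± 1.74 at 16 h. Ribosomal protein genes were lower in PE in 9 of 16 at 3 h and in 1 at 16 h, with list medians of -1.06 and -0.33, and the change itself was called in 3 of 16, all upward. Of the 9 indole glucosinolate genes 0 were called by limma at 3 h and 0 had an unadjusted p under 0.05, with a list median of 0.08. MAN1 and MAN6 were higher in PE at 3 h, MAN1 at 9.24 against 6.76, and MAN1 was 3.42 ± 0.10 and 3.33 ± 0.19 at 16 h. CYP707A2 was higher in PE at 3 h, at 11.43 against 9.62, and lower at 16 h. DOG1, a master regulator of dormancy, was 8.54 in PE and 6.88 in RAD at 3 h and 4.30 ± 0.50 and 3.95 ± 0.23 at 16 h. The 3 h PE group held 3 arrays, and 1412 to 1567 loci were called at 3 h when each array was left out in turn.

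**Figure D5:**
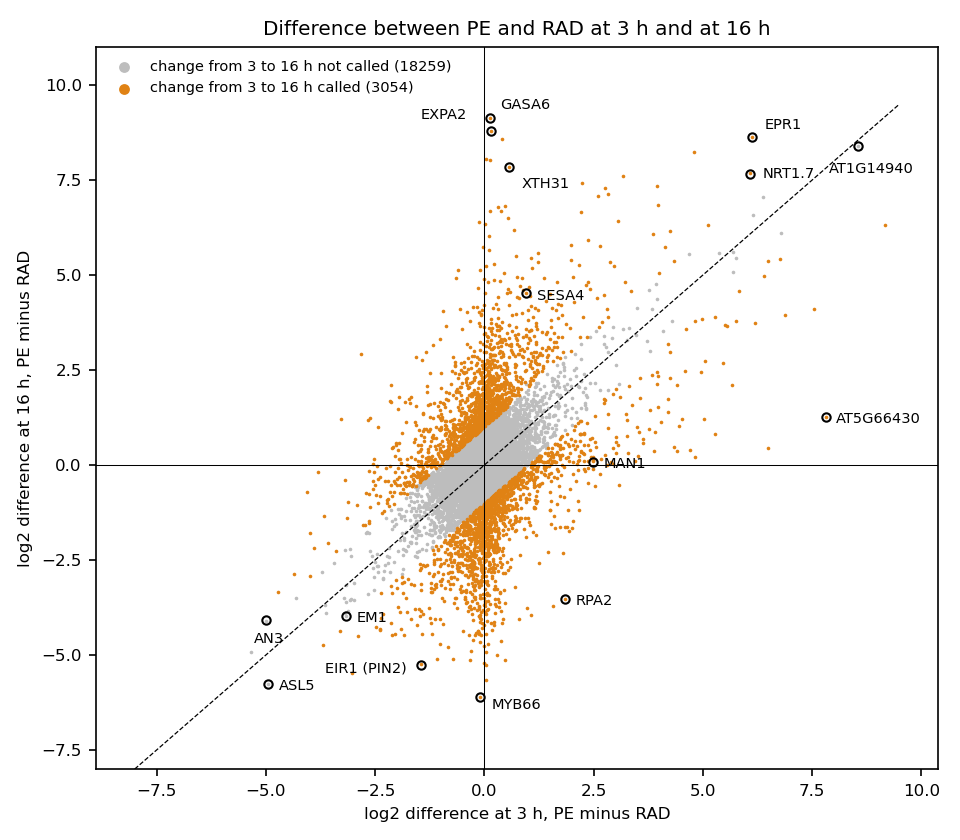
PE minus RAD log2 difference at 3 h (x axis) and at 16 h (y axis) for 21313 loci, with loci whose change was called in orange and the line of equal difference dashed. EXPA2, GASA6 and XTH31 sit near 0 on the x axis, and ASL5 and AT1G14940 sit near the dashed line.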

How the data were processed

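The series matrix holds log2 expression values that the authors deposited after robust multi-array averaging (RMA) with affy, per the submitters' processing notes. No version, probe definition or build was found in the labels. RMA adjusts background and quantile-normalizes across arrays, which sets array distributions alike. Rows are Arabidopsis loci, of which 21205 were named through the RefSeq table (TAIR10.1) and 108 keep their locus name. Arrays give no read depth, and their number per group limits the precision.

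One mean per group was fitted over all 111 arrays and 28 groups (83 residual degrees of freedom) with limma 3.58.1 in R 4.3.3, two-sided, with Benjamini-Hochberg adjustment over 21313 loci. Standard errors therefore pool the spread of all groups. A call needs an adjusted p under 0.05 and a difference of at least 1. On simulated data 100 of the 21313 loci were changed by 1.2 and 100 by 2 in PE minus RAD at 16 h. Of these 95% and 100% were called, with 1 false call among the unchanged loci. The simulated noise was independent and normal, with 1 SD per locus in every group, and no other locus differed. Error rates on the real arrays, where groups differ in spread and many loci differ, were therefore not tested.

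Named genes are the 15 largest differences with a symbol in each direction whose arrays do not overlap, up to 4 called members per direction of each of 38 lists (464 of 493 loci measured) with members given as not passing, the 6 most positive and negative genes of the other comparisons among those called at 16 h and the 6 smallest differences at means of at least 10. The comparison, the members and the lists were chosen with earlier results of these data known. Genes without a RefSeq symbol go by locus name. Alternatives were a filter on dim loci (25%), 2 scalings, a trend in the prior, array weights, only the compared groups, the replicate block, no fold minimum and leaving out each of 23 arrays in turn. Same-numbered PE and RAD arrays at 16 h had correlations of their deviations of 0, -0.007, 0.078 and -0.094, so numbers were not taken as pairs. Same-numbered arrays of other groups were not correlated. The values of 1 list member are not reported here.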

Additional observations from a re-analysis of the deposited data

Results flagged for a closer look

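Single arrays stood apart from the rest of their group in 3 of the 70 groups of 4 arrays examined over 35 genes, where chance sets apart about 1 group in 20. SESA4 was 4.38 on RAD replicate 4, against 7.48 to 8.01 on the other 3 RAD arrays. PLT2 was 3.55 on PE replicate 2, against 3.16 to 3.17 on the other PE arrays, all of them dim. E12A11 was 5.44 on RAD replicate 3, against 3.66 to 3.84 on the other RAD arrays.

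The difference between PE and RAD at 16 h was not that of 3 h in 3054 loci, by the test of the change itself. The 6 most positive changes among genes also called at 16 h were 7.28 for XTH31, 7.91 for OCT1, 8.02 for scpl20, 8.16 for CYP71B2, 8.62 for EXPA2 and 9.0 for GASA6. The 6 most negative were -6.54 for AT5G66430, -5.99 for MYB66, -5.7 for AT4G15160, -5.59 for CYP86A4, -5.37 for RPA2 and -5.29 for XYL4. AT5G66430 was 10.66 in PE and 2.86 in RAD at 3 h, and its call at 16 h was lost without PE replicate 4.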

How the results depend on the processing

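Without a fold minimum the counts of called loci rose to 9353 for PE minus RAD at 16 h, 1315 for PE minus MCE, 8998 for PE minus COT, 6169 for PE minus RAD at 3 h and 6820 for the change, since that setting removes a criterion. The other settings run moved none of the 5 counts by over 1.5 times. Leaving out each array in turn gave 3195 to 3330, 231 to 253, 3171 to 3261, 1412 to 1567 and 2989 to 3121 in the same order. With the replicate block the counts were 3274, 241, 3205, 1570 and 3064. The correlations of same-numbered PE and RAD arrays at 16 h do not bear out a pairing of those groups. For the other comparisons, PE against MCE among them, such a pairing was not tested. E12A11 ran alike by replicate number, at 7.52, 7.78, 8.87 and 9.07 in PE and 7.99, 7.94, 9.18 and 9.34 in MCE. EXPA2 did not, at 13.89, 13.96, 13.93 and 13.72 in PE and 14.19, 14.18, 13.89 and 14.40 in MCE. The main fit took these arrays as independent. The share of higher calls at 16 h was 49.8% as deposited, 50.6% after a further quantile normalization and 48% after trimmed mean scaling. Over the named genes 7656 values under alternative settings stayed on their side of the threshold, 32 passed it newly and 27 lost it. Among values called in the main fit or the alternative 0 changed sign. Signs of genes called in neither were not compared. Calls lost in at least 1 setting, none of which moved a direction, included AOS, AT1G03890, CRU3, CYP79B2, EXPA14, GASA2, GID1A, NAP57, PKT3, PORB, TCH3, TIFY7 and XTH18, with differences of 1.01 to 1.27 in size. Counts of list members under these settings were added after the data were seen. Those that moved by over 1.5 times did so by 1 or 2 genes: MAN2 gained as lower, GA2OX6 and CYCD1;1 gained as higher, GID1A lost, CRU2 gained as lower without RAD replicate 4, and AT4G21020 and AT1G72100 gained as lower without PE replicate 4. The cause was not tested. The filter on dim loci leaves fewer genes in a list, and by that construction it moved list medians by over 1.5 times or across 0: endosperm-expressed 0.18 to 1.49, gibberellin synthesis -0.70 to -1.74, xyloglucan enzymes -0.28 to -0.81, NADPH oxidases 0.88 to 1.63, D-type cyclins -0.79 to -1.38, GASA peptides 0.12 to 0.48, gibberellin inactivation 0.13 to 0.43, jasmonate 0.11 to 0.50, expansins -0.02 to -0.17, seed coat 0.04 to -0.33, abscisic acid hydroxylases -0.53 to -0.84, and root hair, mannanase and abscisic acid synthesis lists by under 0.1. Without single arrays the expansin, mitosis and abscisic acid synthesis medians crossed 0. Differences that rest on means under 4.03 are limited by signal over background.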

Other observations

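Families of loci sharing a RefSeq symbol stem, 153 of them with at least 10 measured loci, were ranked after their values were seen by the share called in 1 direction between PE and RAD at 16 h, so their counts are a description. Arabinogalactan proteins (AGP), glycoproteins of the cell surface, had 12 of 28 lower in PE, led by AGP12 at 6.44 ± 0.18 (SD, n = 4) against 11.05 ± 0.14, and 1 higher, AGP24 at 6.96 ± 0.15 against 4.74 ± 0.25. The related fasciclin-like proteins (FLA) had 7 of 17 lower and 1 higher, FLA9. Fatty acid elongation enzymes (KCS) had 9 of 19 lower, while KCS5 was higher at 9.18 ± 0.36 against 5.40 ± 0.13. Histone H2A genes (HTA) had 5 of 10 lower, with HTA11 at 3.96 ± 0.22 against 7.68 ± 0.40. The stem PIP, which joins plasma membrane aquaporins with PIP5K lipid kinases, had 5 of 16 lower and none higher, and its aquaporin gene PIP1C was 3.93 ± 0.16 against 7.98 ± 0.17. The stem HB, which joins homeobox genes with haemoglobin genes such as HB1 (AT2G16060), had 12 of 38 lower and 5 higher.

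On the side of the endosperm, methyl esterase genes (MES) had 5 of 17 higher and none lower, with MES1 at 9.79 ± 0.30 in PE against 4.21 ± 0.14 in RAD and MES5 at 10.53 ± 0.08 against 5.35 ± 0.26. Protein kinases of the SNRK stem had 4 of 10 higher, with SNRK2-8 at 10.22 ± 0.12 against 6.13 ± 0.17. Plasma membrane proton pumps (HA) had 3 of 10 higher, HA2 at 12.36 ± 0.10 against 10.16 ± 0.12. Protein disulfide isomerases (PDIL) had 4 of 12 higher, with PDIL1-1 at 11.12 ± 0.23 against 8.91 ± 0.25. The stem ARF joins auxin response factors with ADP-ribosylation factors, and among the auxin response factors ARF17 was higher at 8.62 ± 0.09 against 3.92 ± 0.21 and ARF6 lower at 5.55 ± 0.02 against 8.43 ± 0.21. ABC transporters of the ABCC stem had 3 of 10 higher and 2 lower, with ABCC10 at 9.94 ± 0.12 against 5.45 ± 0.35. Over all loci 7.65% were higher and 7.7% lower.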
